A study of Mus musculus with 8 samples.

Results

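Effector Th1 cells were compared with effector Th2 cells, using 4 of the 8 RNA sequencing libraries of the series, 2 for each subset. The labels of the samples give these members. The 2 libraries of naive CD4 T cells and the 2 of effector Th17 cells served as reference levels and in the estimate of the spread. All cells came from DO11.10 Tg mice, used at 6 to 12 weeks of age, whose CD4 T cells carry one transgenic TCR specific for an OVA peptide. The starting cells were naive splenic CD4 T cells (CD44low) purified on a cell sorter, and these were also the naive group. They were activated for 6 days with 0.3 μM OVA peptide presented by irradiated splenocytes from which T cells had been removed. Th1 and Th2 cultures shared IL-2 at 30 U/ml. Th1 cultures further received IL-12 at 100 U/ml with 1 μg/ml of anti-IL-4 Ab, whereas Th2 cultures received IL-4 at 100 U/ml with 10 μg/ml of anti-IFNγ Ab. Th17 cultures had no IL-2 but held IL-6, IL-1β and IL-23 at 10 ng/ml each, with anti-IL-4 and anti-IFNγ Ab at 10 μg/ml each. No sorting of the cultured cells before RNA extraction is described, so the libraries could hold RNA of other cells of the culture.

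Th1 and Th2 cells are 2 of the helper subsets that an activated naive CD4 T cell can become. IL-12, acting through STAT4, and IFN-γ install the transcription factor T-bet and lead to cells that secrete IFN-γ and help macrophages and cytotoxic cells. IL-4, acting through STAT6, installs GATA3 and leads to cells that secrete IL-4, IL-5 and IL-13, which drive allergic inflammation and immunity to worms. The 2 programs repress each other, and the antibodies in each culture neutralise the cytokine of the opposite subset.

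Of 23284 genes in the files, 10946 averaged 1 FPKM or more in the Th1 and Th2 libraries and were tested on the log2(FPKM + 1) scale. FPKM, a gene's fragments relative to its exon length and to the depth of the library, is called the level below, and the difference is the mean log2(FPKM + 1) of Th1 minus that of Th2. The intervals around the FPKM values implied 20346892 and 20359025 fragments in the Th1 libraries, and 19780896 and 19593492 in the Th2 libraries, so depth was alike in both groups. Across the tested genes, Pearson's r was 0.957 between the Th1 libraries and 0.949 between the Th2 libraries, against 0.847 to 0.873 between a Th1 and a Th2 library. The median absolute log2 difference was 0.14 within Th1, 0.14 within Th2, and 0.35 between the group means. Genes are not independent replicates, and these values describe the libraries only.

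In limma's test, 5028 genes (45.9% of those tested) differed at an adjusted p-value under 0.05, of which 3079 (28.1%) were higher in Th1 and 1949 (17.8%) in Th2. These shares are the background for the counts of the gene lists below, which were written with earlier results of these data known. With a difference of at least 1 on the log2 scale as well, 795 genes (7.26%) were higher in Th1 and 647 (5.91%) in Th2. The larger of these counts changed sides with the scaling, with 686 higher in Th1 and 748 in Th2 under median scaling, and 712 and 786 under quantile normalization. The median difference over all tested genes was 0.111 as deposited, 0.023 after median scaling, and 0.016 after quantile normalization. Calls higher in Th1 made up 61.2% of all calls as deposited. This share was 52.4% with median scaling (2528 genes higher in Th1 and 2296 in Th2) and 50.9% with quantile normalization (2490 and 2400). The balance between the directions therefore rested on the scaling, with and without a threshold on the difference. Without Th1 replicate 2 the calls higher in Th1 fell to 1828, and without Th2 replicate 2 to 1950. Where one group was near 0 the size of the difference depended on the pseudocount, and with 0.1 in place of 1 that of *Il5*, for instance, was -6.17 in place of -3.48. Groups that did not overlap were common. Of 10946 genes tested, 2541 were called higher in Th1 with no overlap and a Th1 mean of at least 5 FPKM. On the Th2 side the same held for 1476 genes. The labels do not say whether the 2 libraries of a group came from separate cultures, so the p-values measure only the spread between libraries of a group. That spread was estimated over all 4 groups, and a fit of only the 4 Th1 and Th2 libraries called 4649 genes.

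**Figure D1:**
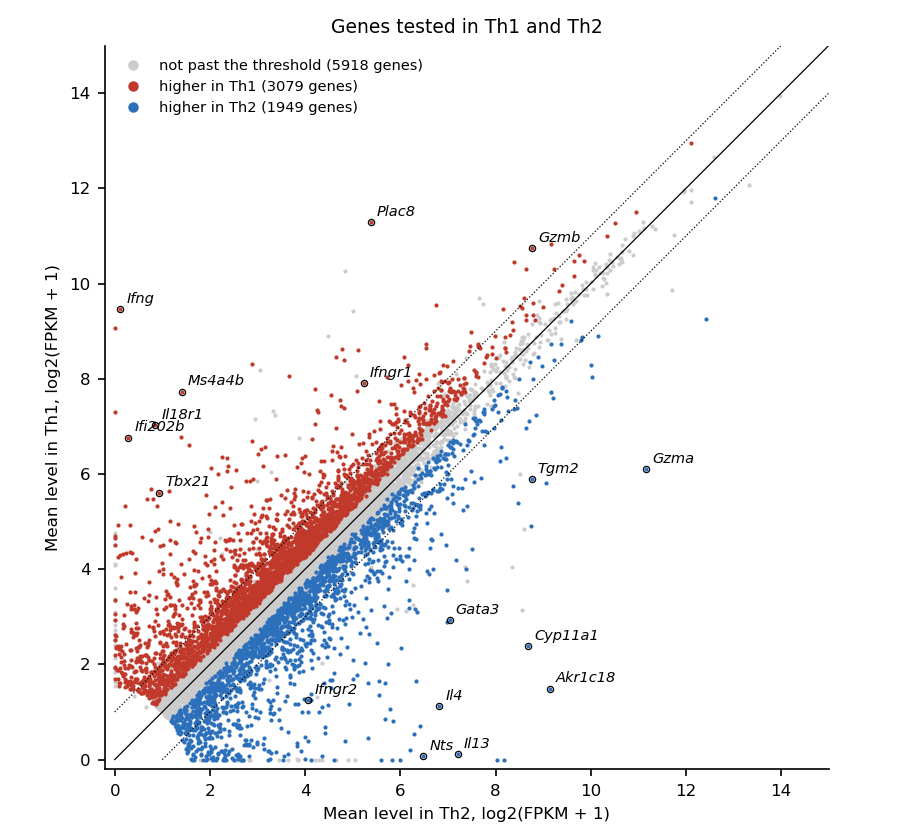
Mean level in Th1 (vertical axis) against mean level in Th2 (horizontal axis), both in log2(FPKM + 1), for the 10946 genes tested, with 1 point per gene. Red points were higher in Th1 and blue points higher in Th2 (limma, adjusted p under 0.05). The solid line marks equal levels and the dotted lines a difference of 1. *Ifng*, *Il18r1*, *Il13* and *Nts* lie near an axis, since their level in the other subset was close to 0.

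The 4 marker genes separated the libraries as labelled. *Tbx21*, which encodes T-bet (chr11:97098007-97115331, mm10), was at 45.1 and 50.7 FPKM in Th1 and 1.07 and 0.778 FPKM in Th2, a difference of 4.67 (SE 0.13, adjusted p = 1.36e-06). *Ifng* (chr10:118441047-118445892) was at 802 and 614 FPKM in Th1, and in Th2 it was listed at 0 in replicate 1 and at 0.165 FPKM in replicate 2. No library of one group reached the other in either gene. *Gata3*, the Th2 transcription factor (chr2:9857078-9878600), was at 5.46 and 7.95 FPKM in Th1 and 127 and 133 FPKM in Th2, a difference of -4.11 (SE 0.21, adjusted p = 1.25e-05). Naive cells, at 20.2 and 20.4 FPKM, lay between the subsets, so that *Gata3* was lower in Th1 than in the starting cells. *Il4* (chr11:53612461-53618665) was at 1.14 and 1.2 FPKM in Th1 against 129 and 97.6 FPKM in Th2, a difference of -5.71 (SE 0.13, adjusted p = 9.34e-07). All 7 CD4 T cell genes tested, the CD3 chains among them, were above 100 FPKM in all 4 libraries, and the Th17 genes *Il17a* and *Il17f* were at 1.01 FPKM or less in all 4. *Foxp3*, the regulatory T cell factor, was at 0.874 and 1.13 FPKM in Th1 and 0.423 and 0.541 FPKM in Th2.

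Of the 21 genes of a Th1 program list, 19 were tested, and 17 were higher in Th1 and none in Th2, with a median difference of 2.65 beside 0.111 over all genes tested. Of the 26 genes of a Th2 program list, 21 were tested, and 19 were higher in Th2 and none in Th1, with a median of -1.71. Both lists were written with earlier results of these data known, so the counts describe the lists and are not independent evidence. The Th2 members that did not pass were *Stat6*, the transducer of the IL-4 signal, at 38.4 and 45.2 FPKM in Th1 and 52.8 and 58.2 FPKM in Th2 (adjusted p = 0.0593, and 0.0189 after quantile normalization), and *Dennd4b* (adjusted p = 0.0611, and 0.0196 after quantile normalization). The Th1 members were *Runx3*, a partner of T-bet, whose levels overlapped at 54.6 and 69.2 FPKM in Th1 and 48.4 and 65.7 FPKM in Th2, and *Il12rb1*, described below. Among the called Th2 factors were *Maf*, an activator of *Il4*, at 27.5 and 20.5 FPKM in Th1 and 95.5 and 104 FPKM in Th2, and the nuclear receptor gene *Pparg*, at 1.79 and 2.64 FPKM in Th1 and 22 and 23.2 FPKM in Th2. *Epas1*, which encodes the oxygen-sensitive factor HIF-2α, was the most different transcription factor of the list, at 0.227 and 0.731 FPKM in Th1 and 75.9 and 79.4 FPKM in Th2, a difference of -5.75 (SE 0.17, adjusted p = 1.55e-06). Its relative *Hif1a* was at 297 and 254 FPKM in Th1 and 307 and 354 FPKM in Th2, and did not pass (adjusted p = 0.124).

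Of 33 cytokine genes, 25 were tested, of which 13 were higher in Th1, 11 in Th2, and 1 did not pass, with a median difference of 0.45. IL-13, which drives mucus production, showed the largest Th2 difference of the list, with *Il13* at 0.0974 and 0.0682 FPKM in Th1 and 150.2 and 143 FPKM in Th2, a difference of -7.09 (SE 0.20, adjusted p = 1.36e-06). *Il5*, the eosinophil growth factor, was lower in absolute level, at 10.6 and 10.8 FPKM in Th2, and stood at 0.0489 and 0.0514 FPKM in Th1. Both genes were thus close to 0 in Th1, with every Th2 library far above. In Th1, *Ifng* was followed by the genes of lymphotoxin α, CSF-1, TNF and CD40 ligand. *Lta* was at 412 and 372 FPKM in Th1 and 26.3 and 26.6 FPKM in Th2, a difference of 3.84 (SE 0.11, adjusted p = 1.5e-06). *Tnf* was at 52.1 and 51.5 FPKM in Th1 and 4.24 and 4.67 FPKM in Th2, a difference of 3.28 (SE 0.13, adjusted p = 4.06e-06). *Csf1*, the macrophage growth factor, was at 91.7 and 114 FPKM in Th1 and 7.15 and 5.63 FPKM in Th2. *Cd40lg*, whose product licenses dendritic cells and B cells, was at 64.6 and 49.7 FPKM in Th1 and 5.48 and 6.95 FPKM in Th2, a difference of 3.01 (SE 0.20, adjusted p = 3.63e-05). Some cytokines of the Th2 side were expressed in both subsets and differed in degree. *Il10*, the anti-inflammatory cytokine, was at 43.7 and 38.1 FPKM in Th1 and 159.8 and 116 FPKM in Th2 (difference -1.71, adjusted p = 0.000167), and *Il24*, its neighbour in sequence family, at 139 and 112 FPKM in Th1 and 418 and 374 FPKM in Th2 (difference -1.66, adjusted p = 6.32e-05). *Lif*, an IL-6 family cytokine, was at 58.7 and 47 FPKM in Th1 and 341 and 313 FPKM in Th2 (difference -2.61, adjusted p = 9.05e-06). Transcripts of *Il2* were at 0.0883 FPKM or less in all 4 libraries, which had received IL-2 in the medium.

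**Figure D2:**
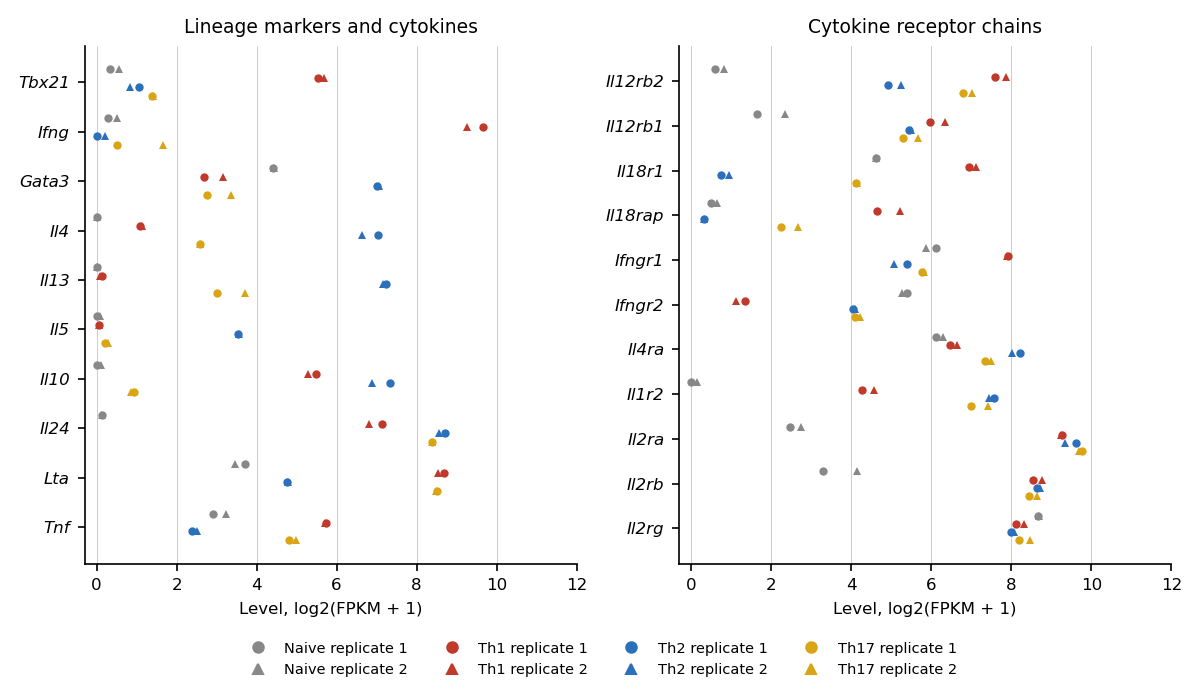
Levels of lineage markers, cytokines and cytokine receptor chains in each of the 8 libraries, in log2(FPKM + 1). Each point is 1 library, the colour gives the group and the shape the replicate. Th1 and Th2 points lie apart for *Tbx21*, *Ifng*, *Gata3*, *Il4*, *Il13* and *Il5*, and *Ifngr1* and *Ifngr2* order the subsets in opposite ways, whereas the Th1 and Th2 points of *Il2rb* overlap.

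Each subset carried more transcript of receptors for the cytokines that define it, but not of every chain. A cytokine receptor is built of 2 or more chains, and of 37 chains listed, 30 were tested, with 8 higher in Th1 and 11 in Th2 (8 and 14 after median scaling, 9 and 13 after quantile normalization) and a median difference of -0.24. Over all genes tested, 28.1% were higher in Th1 and 17.8% in Th2, so the Th1 count was near that share. IL-18 acts with IL-12 on Th1 cells, and transcripts of both of its receptor chains were abundant in Th1 and close to absent from Th2. *Il18r1* was at 122 and 137 FPKM in Th1 and 0.666 and 0.935 FPKM in Th2, a difference of 6.18 (SE 0.11, adjusted p = 6.21e-07), and *Il18rap* was at 24 and 36.4 FPKM in Th1 and 0.244 and 0.248 FPKM in Th2, a difference of 4.62 (SE 0.21, adjusted p = 7.68e-06). The IL-12 receptor was uneven. *Il12rb2*, its signalling chain, was at 193 and 233 FPKM in Th1 and 29.1 and 37 FPKM in Th2, a difference of 2.65 (SE 0.16, adjusted p = 2.67e-05). *Il12rb1*, the chain shared with the IL-23 receptor, was at 62.1 and 80.8 FPKM in Th1 and 42.8 and 44.1 FPKM in Th2 and did not pass (adjusted p = 0.0525, and 0.0495 after quantile normalization).

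The 2 chains of the IFN-γ receptor moved in opposite directions. *Ifngr1*, the chain that binds IFN-γ, was at 239.5 and 238 FPKM in Th1 and 40.9 and 32.8 FPKM in Th2, a difference of 2.67 (SE 0.14, adjusted p = 1.11e-05). *Ifngr2*, the chain needed for signalling, was at 1.55 and 1.19 FPKM in Th1 and 15.4 and 16 FPKM in Th2, a difference of -2.82 (SE 0.11, adjusted p = 3.75e-06). In Th1 the level of *Ifngr2* was far below that in naive cells, at 41.2 and 37.8 FPKM, whereas that of *Ifngr1* was above the naive 68.2 and 57.1 FPKM. On the Th2 side, *Il4ra*, the shared chain of the IL-4 and IL-13 receptors, was at 88 and 99.4 FPKM in Th1 and 296 and 258 FPKM in Th2, a difference of -1.55 (SE 0.13, adjusted p = 9.36e-05). *Il1r2*, a decoy receptor that binds IL-1 without signalling, was at 18.3 and 22.9 FPKM in Th1 and 189 and 172 FPKM in Th2, a difference of -3.08 (SE 0.17, adjusted p = 1.59e-05). For the 3 chains of the IL-2 receptor no difference was called. The 95% interval of the difference was -0.56 to 0.10 for *Il2ra*, -0.64 to 0.59 for *Il2rb* and -0.11 to 0.51 for *Il2rg*, so that a difference of the size seen for *Il4ra* lies outside all 3 intervals.

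Genes beside each other in the genome could differ in opposite directions. On chromosome 1, between positions 40084768 and 40549297 (mm10), the files list 6 receptor genes of the IL-1 family, all of which passed the test. In order along the chromosome, *Il1r2* and *Il1r1* were higher in Th2, *Il1rl2*, which encodes the IL-36 receptor, in Th1, *Il1rl1*, which encodes the IL-33 receptor, in Th2, and *Il18r1* and *Il18rap* in Th1. *Il1rl1* ended at position 40465414 and *Il18r1* began at 40465552. The level of *Il1rl1* was 1.95 and 2.9 FPKM in Th1 and 4.41 and 5.34 FPKM in Th2, a difference of -0.79 (SE 0.17, adjusted p = 0.00879), and without Th2 replicate 2 it no longer passed (adjusted p = 0.0569). *Il1rl2* was at 4.92 and 5.95 FPKM in Th1 and 0.956 and 0.932 FPKM in Th2, a difference of 1.72 (SE 0.17, adjusted p = 0.000255).

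The Th2 cytokine cluster on chromosome 11 gave a similar picture between positions 53567379 and 53778374. In order, *Kif3a*, *Il4*, *Il13*, *Rad50* and *Il5* were higher in Th2, and the next gene, *Irf1*, in Th1. *Kif3a*, which encodes a kinesin motor, was at 3.99 and 3.84 FPKM in Th1 and 13.9 and 14.8 FPKM in Th2, a difference of -1.64 (SE 0.09, adjusted p = 1.32e-05). *Rad50*, a DNA repair gene that holds the locus control region of the cluster, was at 8.73 and 10.2 FPKM in Th1 and 23.3 and 27.8 FPKM in Th2, a difference of -1.34 (SE 0.13, adjusted p = 0.00021). The groups did not overlap for any of the 6 genes, as was common among all genes tested. The cytokine genes spanned a far wider range than *Kif3a* and *Rad50*. *Irf1*, a transcription factor induced by IFN-γ, was at 75.9 and 88.8 FPKM in Th1 and 25.1 and 25.5 FPKM in Th2, a difference of 1.66 (SE 0.11, adjusted p = 4.34e-05).

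The transducers of cytokine signals split between the subsets. Of 28 JAK, STAT, SOCS and IRF genes, all tested, 11 were higher in Th1 and 10 in Th2 as deposited. Median scaling gave 7 and 11, and quantile normalization 8 and 11, so that the balance between the directions depended on the scaling. The median difference was -0.03. Those higher in Th1 were 7 without Th1 replicate 2 or either Th2 library, and those higher in Th2 were 6 without Th1 replicate 1. *Stat4*, which transduces the IL-12 signal, was at 40.1 and 50 FPKM in Th1 and 14.6 and 16.4 FPKM in Th2. *Irf8*, an interferon regulatory factor better known from myeloid cells, had the largest difference of the list, at 101 and 112 FPKM in Th1 and 15.7 and 17.9 FPKM in Th2 (difference 2.59, SE 0.15, adjusted p = 1.94e-05). The kinase gene *Jak2* was at 20.6 and 21.2 FPKM in Th1 and 63.9 and 80.8 FPKM in Th2 (difference -1.73, SE 0.14, adjusted p = 9.17e-05). *Socs3*, a feedback inhibitor of IL-6 family and IL-12 signals, was at 54.2 and 57.9 FPKM in Th1 and 197 and 177 FPKM in Th2 (difference -1.72, SE 0.11, adjusted p = 3e-05). Both were thus higher in Th2 in each library. *Stat3* was at 45.6 and 52.7 FPKM in Th1 and 104 and 119 FPKM in Th2, a difference of -1.16 (adjusted p = 0.00216).

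Most genes induced by interferon were higher in Th1. Of 58 listed genes, 46 were tested, and 40 of these were higher in Th1 and 2 in Th2, with a median difference of 1.60. Of the 40, 32 differed by at least 1 on the log2 scale. Median scaling gave 38 and 2, and quantile normalization 39 and 2. The summed level of the 46 genes was 2594.3 and 2789 FPKM in Th1 and 977 and 876 FPKM in Th2. Naive cells were at 2700.1 and 3656 FPKM, and Th17 cells at 1379 and 1495 FPKM, so that Th2 held the lowest sums and Th1 those nearest to naive cells. The Th1 and Th2 cultures differed both in the cytokine and in the antibody added, and the parts of these in the levels cannot be told apart.

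The leading members belong to families of GTPases that act against intracellular microbes. *Tgtp1* was at 82.6 and 79.6 FPKM in Th1 and 4.13 and 3.41 FPKM in Th2, a difference of 4.11 (SE 0.11, adjusted p = 1.36e-06). *Iigp1*, another immunity-related GTPase gene, was at 17.3 and 21.2 FPKM in Th1 and 0.0598 and 0.295 FPKM in Th2. *Gbp7*, a guanylate-binding protein gene, was at 72.2 and 70.5 FPKM in Th1 and 4.4 and 3.98 FPKM in Th2, a difference of 3.80 (SE 0.16, adjusted p = 5.5e-06). All 10 guanylate-binding protein genes tested, *Gbp2* to *Gbp11*, were higher in Th1 with differences of 1.12 to 3.80. *Zbp1*, a sensor of Z-form nucleic acids, was at 88.8 and 99.3 FPKM in Th1 and 7.74 and 8.16 FPKM in Th2, a difference of 3.41 (SE 0.21, adjusted p = 2.67e-05). *Tgtp2* was at 69 and 67.8 FPKM in Th1 and 3.2 and 2.91 FPKM in Th2, but it and *Tgtp1* are near copies, with 86.6% and 81.2% of their stretches of 50 bases found in another gene, so that the split of reads between them is uncertain. Among the members that were not tested, *Ifit1*, *Ifit3*, *Mx2*, *Oas2* and *Rsad2* were at 0.581 FPKM or less in Th1 and 0.136 FPKM or less in Th2. The genes of the list that were higher in Th2 were *Socs1* (adjusted p = 0.0438), which no longer passed when any library but Th2 replicate 2 was left out, and *Dhx58* (adjusted p = 0.0199), which no longer passed without Th1 replicate 1, Th1 replicate 2 or Th2 replicate 2. The adjusted p-values without those libraries were 0.0509 to 0.195 for *Socs1* and 0.055 to 0.131 for *Dhx58*.

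**Figure D3:**
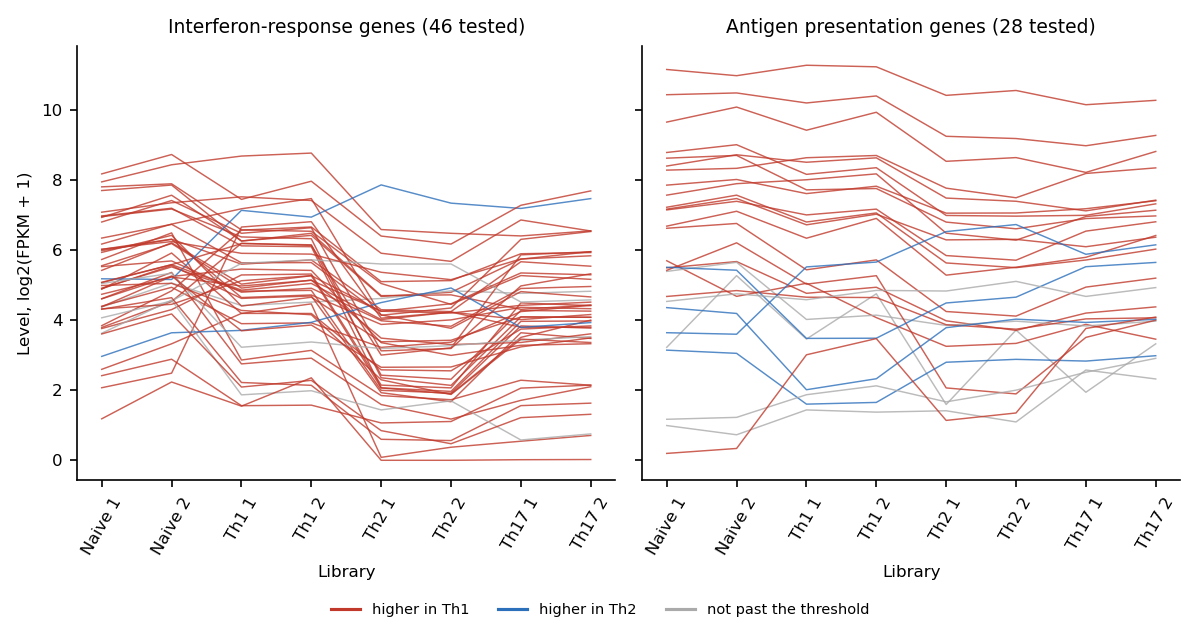
Levels of the tested interferon-response genes (left) and antigen presentation genes (right) in each library, in log2(FPKM + 1), with 1 line per gene. Red lines were higher in Th1, blue lines higher in Th2 and grey lines did not pass (limma). Red lines drop from the Th1 to the Th2 libraries, and in the left panel 40 of 46 lines are red.

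Promoter letters of these genes were read from RefSeq (GRCm38.p6) in windows from 250 bases before to 50 after each start. The gamma-activated site that STAT factors bind was searched as TTCNNNGAA, and the interferon-stimulated response element that IRF and STAT complexes bind as a pair of GAAA words with 2 bases between them, on both strands. Of 32851 windows, 8.3% held the first motif, 3.44% the second, and 0.454% both, against 6.88%, 3.04% and 0.425% of the windows of genes tested, and in 24 windows a match of one overlapped a match of the other. Of the 39 windows of the 31 interferon-response genes that could be matched, 33.3% held the first, 48.7% the second, and 20.5% both. The windows of genes higher in Th1 by at least 1, with 548 of 795 genes matched, held them in 9.07% and 6.09%. Those of genes higher in Th2 by at least 1, with 468 of 647 matched, held them in 5.31% and 2.65%. The 795 genes include 32 of the interferon-response genes, so the shares of the Th1 set are not separate from theirs. A match describes the letters of a window and is not evidence of binding.

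Of the interferon-response genes tested, 8 held both motifs in a window, and the order and spacing are not given here for all of them. Among those read out, 4 GTPase genes had the motifs in the same order with 2 bases between them. These stretches are shown for that shared arrangement and not by the size of the difference. *Gbp5* (difference 3.06) and *Gm12250* (difference 2.27) held both motifs in other arrangements and are not shown. Capitals mark the gamma-activated site first and the response element second, each stretch is read 5′ to 3′ along the gene, and it ends before the transcription start.
*Tgtp1* (chr11:48992299-48992349, minus strand, GRCm38.p6): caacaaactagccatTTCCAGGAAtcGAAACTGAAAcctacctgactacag
*Tgtp2* (chr11:49064258-49064308, minus strand, GRCm38.p6): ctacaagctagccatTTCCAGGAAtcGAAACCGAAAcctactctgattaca
*Igtp* (chr11:58199496-58199546, plus strand, GRCm38.p6): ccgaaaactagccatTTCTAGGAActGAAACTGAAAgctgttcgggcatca
*Irgm2* (chr11:58214887-58214937, plus strand, GRCm38.p6): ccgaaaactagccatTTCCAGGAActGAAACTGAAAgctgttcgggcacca
The stretches of *Igtp* and *Irgm2* had 49 of 51 bases in common, and those of *Tgtp1* and *Irgm2* had 36. The level of *Igtp* was 414 and 439 FPKM in Th1 and 95.7 and 88.8 FPKM in Th2, a difference of 2.20 (SE 0.17, adjusted p = 6.76e-05), and that of *Irgm2* was 29.3 and 34.5 FPKM in Th1 and 10.3 and 8.9 FPKM in Th2, a difference of 1.64 (SE 0.21, adjusted p = 0.000881). In *Gbp7* a pair of gamma-activated sites came first, followed by a response element read on the other strand. *Irf1* held a single gamma-activated site.
*Gbp7* (chr3:142530215-142530307, plus strand, GRCm38.p6): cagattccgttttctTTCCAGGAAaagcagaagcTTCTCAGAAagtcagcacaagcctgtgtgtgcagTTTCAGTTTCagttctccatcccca
*Irf1* (chr11:53769909-53769947, plus strand, GRCm38.p6): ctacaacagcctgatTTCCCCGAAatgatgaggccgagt

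Genes that present antigen divided by class. Class I molecules show peptides of the cell's own proteins to CD8 T cells, and class II molecules show peptides of ingested proteins to CD4 T cells. Of 30 genes listed, 28 were tested, with 19 higher in Th1, 4 in Th2, and a median difference of 1.04. The 4 higher in Th2 were all of class II, namely *H2-Aa*, *H2-Ab1*, *H2-Eb1* and *Cd74*, the invariant chain. *H2-Aa* was at 3.05 and 4.03 FPKM in Th1 and 12.8 and 15.4 FPKM in Th2, a difference of -1.74 (SE 0.14, adjusted p = 9.24e-05). *H2-Ab1* was at 45.1 and 49.8 FPKM in Th1 and 91.9 and 106 FPKM in Th2, a difference of -1.04 (SE 0.13, adjusted p = 0.000646). *Ciita*, the activator that class II genes depend on, was at 0.172 FPKM or less in all 4 libraries.

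The genes higher in Th1 included those that cut, transport and present class I peptides. *Psmb9*, *Psmb8* and *Psmb10* encode the catalytic subunits of the immunoproteasome, which cuts proteins into peptides. *Psmb9* was at 258 and 290.5 FPKM in Th1 and 89 and 77.4 FPKM in Th2, a difference of 1.71 (SE 0.15, adjusted p = 0.000135). *Tap1*, part of the peptide transporter, was at 111 and 133 FPKM in Th1 and 48.9 and 44.4 FPKM in Th2, a difference of 1.37 (SE 0.17, adjusted p = 0.000691). *Nlrc5*, the activator of class I genes, had the largest difference of the list, at 31.8 and 37.8 FPKM in Th1 and 3.19 and 2.73 FPKM in Th2 (difference 3.17, SE 0.27, adjusted p = 0.000117). The class I heavy chains share sequence with each other, so their separate levels are uncertain, and *H2-D1* was at 1187 and 1364 FPKM in Th1 and 613 and 586 FPKM in Th2 (difference 1.09, adjusted p = 0.00113). *Cd80*, a costimulatory ligand, was also higher in Th1, at 7.09 and 10.1 against 1.2 and 1.55 FPKM (difference 2.00, adjusted p = 0.000178).

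Some markers of B cells and of myeloid cells were also higher in Th2. Of 6 B cell markers, *Cd79a* and *Cd79b* were tested, and both were higher in Th2. *Cd79b* was at 0.72 and 0.482 FPKM in Th1 and 3.23 and 3.97 FPKM in Th2 (difference -1.52, adjusted p = 0.000322), and the difference of *Cd79a* was -0.60 (adjusted p = 0.0261), which no longer passed without Th1 replicate 2 (adjusted p = 0.138) or Th2 replicate 2 (adjusted p = 0.135). The summed level of all 6 was 2.43 to 3.35 FPKM in Th1 and 7.15 to 10.1 FPKM in Th2, and *Ms4a1*, *Pax5* and *Blnk* were at 0.806 FPKM or less. Of 11 myeloid and dendritic cell markers, 4 were tested, 3 were higher in Th2 and 1 in Th1, and the summed level of all 11 was 9.16 to 9.88 FPKM in Th1 and 21.2 to 28.4 FPKM in Th2. *Emr1*, which encodes the macrophage antigen F4/80, was at 0.0214 and 0.0787 FPKM in Th1 and 4.63 and 5.88 FPKM in Th2 (difference -2.57, adjusted p = 1.14e-05), and *Lyz2*, a lysozyme gene, at 4.25 and 4.15 FPKM in Th1 and 19.9 and 11.7 FPKM in Th2 (difference -1.65, adjusted p = 0.00079). *Cd14* went the other way, at 2.54 and 2.96 FPKM in Th1 and 0.557 and 0.539 FPKM in Th2 (difference 1.27, adjusted p = 0.000362). The part of such cells in the class II levels was not tested, and in bulk RNA fewer cells of a type and less RNA per cell cannot be told apart.

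Of 12 mast cell, basophil and eosinophil markers in the files, only *Kit* was tested, at 2.27 and 3.76 FPKM in Th1 and 0.119 and 0.167 FPKM in Th2 (difference 1.79, adjusted p = 0.000386), and *Mcpt8*, *Cpa3*, *Fcer1a* and *Epx* were at 0.239 FPKM or less. None of the 6 red blood cell markers was tested, with a summed level of 0.242 to 0.485 FPKM. Of 10 neutrophil and precursor markers 3 were tested and none passed. *Mpo*, at 4.89 and 0 FPKM in Th1 and 2.46 and 0.0425 FPKM in Th2, and *Elane*, at 2.59 and 0 FPKM in Th1 and 3.71 and 0 FPKM in Th2, were above 1 FPKM only in the libraries of replicate 1 of both subsets. Of 7 natural killer, CD8 and gamma-delta T cell markers, 5 were in the files, and *Cd8b1* alone was tested and did not pass (adjusted p = 0.706). Of 7 CD4 T cell genes tested, 3 were higher in Th1 and none in Th2, with 1 higher in Th1 after either scaling or without Th1 replicate 1 or Th2 replicate 1, and 0 without Th1 replicate 2.

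Th1 cells carried many transcripts of the cytotoxic and natural killer cell repertoire, but the granzymes divided. Of 33 listed genes, 21 were tested, with 15 higher in Th1, 4 in Th2 and a median difference of 1.67. Those higher in Th2 were 2 without Th1 replicate 1 or either Th2 library. *Gzma* and *Gzmb* encode serine proteases that kill target cells. *Gzma* was at 61.1 and 75.5 FPKM in Th1 and 2601 and 2041 FPKM in Th2, a difference of -5.06 (SE 0.28, adjusted p = 1.56e-05). *Gzmb* was at 1606 and 1823 FPKM in Th1 and 532 and 351 FPKM in Th2, a difference of 1.98 (SE 0.27, adjusted p = 0.00113). No library of one subset reached those of the other in either gene, while naive cells were at 5.71 and 6.9 FPKM of *Gzma* and 0.252 and 0.941 FPKM of *Gzmb*. Of the natural killer and CD8 markers, *Ncr1* was listed at 0 in all 4 libraries and *Cd8a* was at 0.165 FPKM or less, whereas *Cd8b1* was at 10.7 and 8.77 FPKM in Th1 and 12.9 and 8.96 FPKM in Th2. The summed level of the 5 markers in the files was 10.3 to 12.2 FPKM in Th1 and 9.08 to 13.1 FPKM in Th2, and the part of such cells in these levels was not tested. *Prf1*, the perforin gene, was low in both subsets, at 6.85 and 6.49 FPKM in Th1 and 3.93 and 3.39 FPKM in Th2.

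*Nkg7*, a cytotoxic granule gene, was at 96.6 and 123 FPKM in Th1 and 1.67 and 1.58 FPKM in Th2, a difference of 5.39 (SE 0.14, adjusted p = 1.17e-06). *Klrk1*, which encodes the activating receptor NKG2D, was at 28.2 and 30.4 FPKM in Th1 and 0.0111 and 0.0787 FPKM in Th2. *Klrd1*, which encodes CD94, was at 22.3 and 15.6 FPKM in Th1 and 0.0495 and 0.10 FPKM in Th2. These receptors were close to absent from Th2 libraries, where the confidence intervals implied at most 6 fragments of *Klrk1* and 2 of *Klrd1*. Their differences of 4.86 and 4.19 rested on the pseudocount and were 7.70 and 6.76 with 0.1 in place of 1. *Fasl*, the death ligand gene, was at 7.39 and 7.12 FPKM in Th1 and 0.0583 and 0.256 FPKM in Th2, and its receptor gene *Fas* was also higher in Th1, at 24.6 and 22.8 against 3.91 and 4.67 FPKM (difference 2.23, adjusted p = 6.72e-05).

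Chemokine receptors, which guide cells into tissues, were mostly higher in Th1. Of 21 listed, 13 were tested, with 8 higher in Th1 and 3 in Th2 (8 and 5 with median scaling, 8 and 4 with quantile normalization). The median difference was 1.3. *Cxcr3*, which encodes a receptor typical of Th1 cells, was at 8.01 and 9.35 FPKM in Th1 and 0.256 and 0.142 FPKM in Th2. *Cxcr6* was at 89.5 and 92.4 FPKM in Th1 and 10.4 and 5.23 FPKM in Th2, a difference of 3.44 (SE 0.26, adjusted p = 6.15e-05). *Cxcr1* and *Cxcr2*, receptors best known from neutrophils, were also higher in Th1. *Cxcr1* was at 198 and 202 FPKM in Th1 and 21 and 23.5 FPKM in Th2 (difference 3.11, adjusted p = 1.55e-06), and *Cxcr2* at 81.2 and 82.4 FPKM in Th1 and 9.16 and 10.2 FPKM in Th2 (difference 2.95, adjusted p = 3.58e-06). Of the neutrophil markers, *S100a8*, *S100a9* and *Retnlg* stood at 0.35 FPKM or less in the same libraries, and the summed level of all 10 was 8.85 and 0.538 FPKM in Th1 and 9.52 and 0.952 FPKM in Th2, with the higher value in replicate 1 of each. The part of such cells in these receptor levels was not tested. *Ccr8* and *Ccr4* encode receptors typical of Th2 cells. *Ccr8* was at 0.991 and 1.94 FPKM in Th1 and 18.6 and 11.8 FPKM in Th2, and *Ccr4* at 34.6 and 32.8 FPKM in Th1 and 80.9 and 78 FPKM in Th2. Of 18 chemokine ligand genes 7 were tested, with 2 higher in Th1, 3 in Th2 and a median difference of -0.48. *Ccl24*, an eosinophil attractant, was listed at 0 in both Th1 libraries and at 8.78 and 7.89 FPKM in Th2.

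Of 39 naive, memory and homing genes, 37 were tested, with 21 higher in Th1, 6 in Th2 and a median difference of 0.74. *Fut7* and *Gcnt1* encode glycosyltransferases that build selectin ligands, with which T cells roll on inflamed vessels. *Fut7* was at 23 and 23.8 FPKM in Th1 and 0.902 and 0.525 FPKM in Th2, a difference of 3.84 (SE 0.13, adjusted p = 1.7e-06). *Gcnt1* was at 26.6 and 31.2 FPKM in Th1 and 2.12 and 2.2 FPKM in Th2, a difference of 3.24 (SE 0.16, adjusted p = 9.64e-06). *Ccr7*, a receptor that guides cells into lymph nodes, was lower in Th1, at 39.8 and 37.8 FPKM in Th1 and 72.6 and 70.5 FPKM in Th2 (difference -0.87, adjusted p = 0.000368). *Itgb3*, the β3 integrin, was at 6.12 and 9.33 FPKM in Th1 and 75.7 and 85.1 FPKM in Th2 (difference -3.24, SE 0.26, adjusted p = 8.8e-05), and *Cd24a*, which encodes a glycosylated surface protein, at 3.46 and 2.63 FPKM in Th1 and 49.1 and 56.5 FPKM in Th2 (difference -3.74, SE 0.16, adjusted p = 5.34e-06).

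Costimulatory and checkpoint receptors split by family member. Of 43 listed, 40 were tested, with 20 higher in Th1, 11 in Th2 and a median difference of 0.59. *Cd83*, *Tnfrsf9* and *Tnfrsf8* led the Th2 side, the last 2 encoding CD137 and CD30 of the TNF receptor family. *Tnfrsf9* was at 271 and 249.5 FPKM in Th1 and 1043 and 1028 FPKM in Th2 (difference -1.99, SE 0.22, adjusted p = 0.000372). *Tnfrsf8* was at 76.5 and 76.8 FPKM in Th1 and 273 and 274 FPKM in Th2 (difference -1.82, SE 0.12, adjusted p = 3.02e-05). On the Th1 side, *Havcr2*, which encodes the inhibitory receptor TIM-3, was at 3.2 and 4.56 FPKM in Th1 and 0.117 and 0.0922 FPKM in Th2 (difference 2.13, SE 0.15, adjusted p = 4.67e-05), and *Cd69*, an early activation antigen, at 20.5 and 16.7 FPKM in Th1 and 4.05 and 3.38 FPKM in Th2 (difference 2.05, adjusted p = 5.14e-05). Of the 9 receptors that the study followed, which it chose on these samples and which are therefore not independent evidence, 6 were higher in Th2 and 1 in Th1, with a median difference of -0.94. The one higher in Th1 was *Ltb4r1*, a leukotriene B4 receptor gene, at 114 and 112 against 64.2 and 45 FPKM (difference 1.05, adjusted p = 0.00177). Of 6 genes listed here around the study's CD30 signal, 4 were higher in Th2 and 2 in Th1, with a median difference of -1.25. The study itself reported 4 genes raised by the CD30 ligand in both Th1 and Th17 cells, *Tgm2* and *Batf3* among them. *Tgm2*, the transglutaminase gene of that signal, was at 57.5 and 59.8 FPKM in Th1 and 432 and 431 FPKM in Th2, a difference of -2.86 (SE 0.16, adjusted p = 1.93e-05), and *Batf3*, a transcription factor gene, at 138 and 114 FPKM in Th1 and 69.3 and 51.7 FPKM in Th2 (difference 1.06, adjusted p = 0.00196). The study found CD30 uniform on Th2 cells but uneven on Th1 cells, and no sort by CD30 is described for these libraries. By quantitative PCR it reported *Tgm2* in Th2 cells as almost equal to that in Th1 cells high in CD30.

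**Figure D4:**
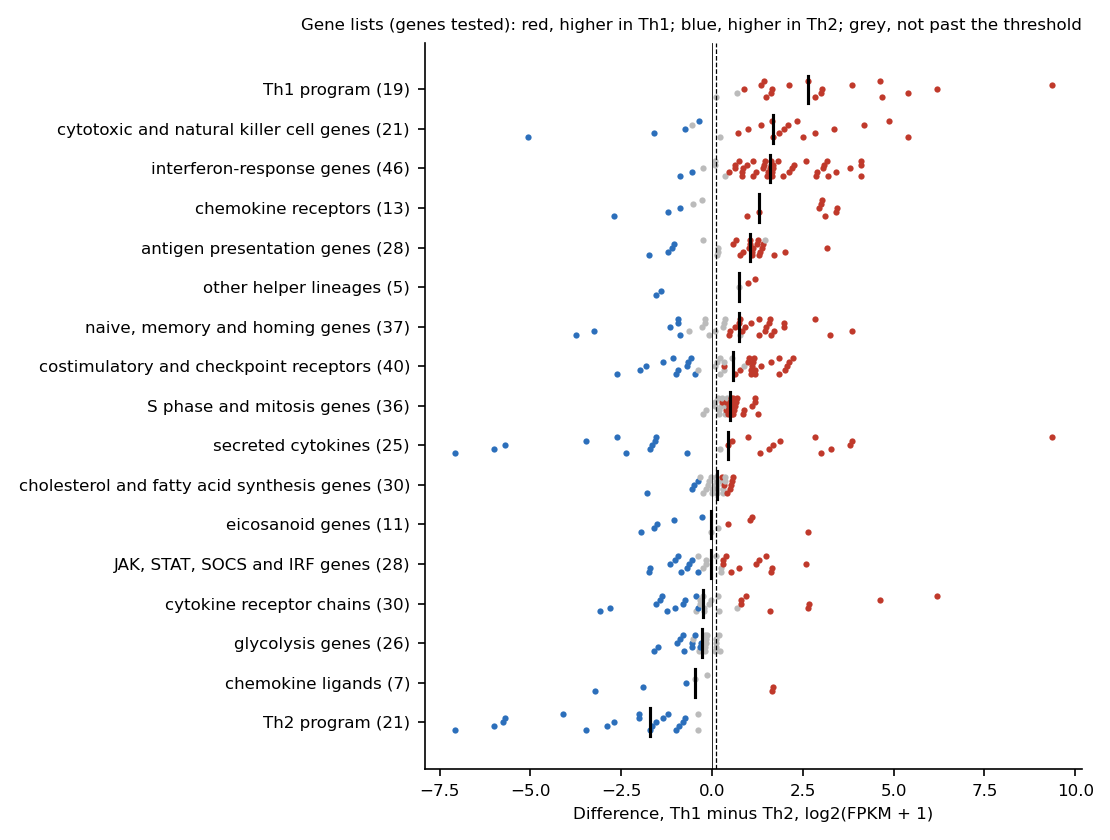
Difference between Th1 and Th2, in log2(FPKM + 1), for the tested members of each gene list, with 1 point per gene and the number tested in brackets. Black bars are list medians, and the dashed line marks the median of 0.111 over all genes tested. The Th1 program and the interferon-response genes lie mostly to the right of that line, the Th2 program to the left, and glycolysis and cholesterol genes lie close to it.

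Metabolic and cell cycle lists showed smaller differences. Of 36 S phase and mitosis genes, all tested, 24 were higher in Th1 and none in Th2, against 19 and 1 with median scaling or 17 and 1 with quantile normalization. The median difference was 0.49. Without Th1 replicate 2 those higher in Th1 were 14, and without Th2 replicate 2 they were 13. *Pcna*, the replication clamp, was at 333 and 328 FPKM in Th1 and 149 and 126 FPKM in Th2 (difference 1.27, adjusted p = 0.000196), whereas *Mki67*, a marker of cycling cells, was at 61.5 and 80.5 FPKM in Th1 and 51.2 and 56.4 FPKM in Th2 and did not pass (adjusted p = 0.127). Of 26 glycolysis genes, 11 were higher in Th2 and none in Th1 under every scaling, with a median difference of -0.27, and 7 passed without either Th2 library. *Slc2a3*, a glucose transporter gene, was at 175 and 209.6 FPKM in Th1 and 544 and 636 FPKM in Th2 (difference -1.61, adjusted p = 0.00021), and *Pfkfb3*, which speeds glycolysis, at 12 and 13.2 FPKM in Th1 and 32.7 and 42.9 FPKM in Th2 (difference -1.50, adjusted p = 0.000224). Of 30 cholesterol and fatty acid genes tested, 7 were higher in Th1 and 4 in Th2 as deposited, but 4 and 6 after either scaling, with a median difference of 0.13 as deposited. Leaving out any 1 of the Th1 and Th2 libraries left 3 to 4 of the former and 1 to 2 of the latter. As deposited, the 7 and 4 of 30 did not stand above the shares of all genes tested, 28.1% and 17.8%. *Hsd17b7*, a sterol synthesis gene, stood apart from the rest of the list at 8.62 and 7.24 FPKM in Th1 and 27.3 and 32.1 FPKM in Th2 (difference -1.78, adjusted p = 4.14e-05). Of 25 eicosanoid genes 11 were tested, with 4 higher in Th1, 5 in Th2 and a median difference of -0.02. *Ptger3*, a prostaglandin E2 receptor gene, was at 5.05 and 7.45 FPKM in Th1 and 0.126 and 0.146 FPKM in Th2 (difference 2.65, adjusted p = 2.96e-05), and *Ptgir*, the prostacyclin receptor gene, at 2.2 and 2.45 FPKM in Th1 and 13.7 and 10.4 FPKM in Th2 (difference -1.96, adjusted p = 6.51e-05). Of 15 genes of other helper lineages 5 were tested, with 2 higher in each subset and a median difference of 0.75 (1 higher in Th1 without Th1 replicate 2 or either Th2 library), among them *Il21*, the follicular helper cytokine, at 7.36 and 5.59 FPKM in Th1 and 22.4 and 18.9 FPKM in Th2 (difference -1.54, adjusted p = 0.000148).

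The 15 largest differences in each direction were taken among called genes whose groups did not overlap and whose higher group had a mean of at least 5 FPKM. On the Th1 side, *Plac8*, a small cysteine-rich protein gene, had the highest level, at 2402 and 2604 FPKM in Th1 and 43.7 and 37.6 FPKM in Th2, a difference of 5.91 (SE 0.12, adjusted p = 6.21e-07). *Ifi202b*, an interferon-inducible gene of the PYHIN family, was at 112 and 103 FPKM in Th1 and 0.185 and 0.251 FPKM in Th2, a difference of 6.48 (SE 0.19, adjusted p = 1.5e-06). *Ms4a4b*, a tetraspanning membrane protein gene of T cells, was at 209 and 213 FPKM in Th1 and 0.544 and 3.56 FPKM in Th2, below the naive level of 579 and 459 FPKM. Several others are better known outside T cells. *P2rx3*, an ATP-gated channel gene of sensory neurons, was at 33.1 and 46.7 FPKM in Th1 and 0.172 and 0.142 FPKM in Th2. *Anxa1*, which encodes the glucocorticoid-regulated protein annexin A1, was at 83.8 and 113 FPKM in Th1 and 2.39 and 1.56 FPKM in Th2, and *Xdh*, the xanthine dehydrogenase gene, at 40.2 and 63.2 FPKM in Th1 and 0.739 and 0.659 FPKM in Th2. *Bst1*, which encodes the surface enzyme CD157, was at 44.9 and 42.5 FPKM in Th1 and 0.721 and 0.498 FPKM in Th2.

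On the Th2 side, *Akr1c18*, a 20α-hydroxysteroid dehydrogenase gene, had the largest difference of any gene that is not a small RNA. It was at 1.81 and 1.8 FPKM in Th1 and 646 and 487 FPKM in Th2, a difference of -7.65 (SE 0.17, adjusted p = 8.99e-07). *Cyp11a1*, which encodes the enzyme that starts steroid synthesis from cholesterol, was at 4.51 and 3.96 FPKM in Th1 and 492 and 339 FPKM in Th2, a difference of -6.29 (SE 0.20, adjusted p = 1.59e-06). In Th17, *Akr1c18* was at 134 and 170.3 FPKM and *Cyp11a1* at 16.4 and 21.8 FPKM, between the Th1 and the Th2 levels. *Nts*, the neurotensin gene, was at 0.0333 and 0.0701 FPKM in Th1 and 80.9 and 96.1 FPKM in Th2, and *Penk*, which encodes the precursor of enkephalins, at 0.188 and 0.113 FPKM in Th1 and 75.8 and 70.2 FPKM in Th2. *Pth*, the parathyroid hormone gene, was listed at 0 in both Th1 libraries and at 69.9 and 56.8 FPKM in Th2, and *Htr1b*, a serotonin receptor gene, at 0 and at 43.5 and 51.5 FPKM. The Th2 levels of *Pth* rested on up to 1094 implied fragments and those of *Htr1b* on up to 1476. *Stfa2*, a cysteine protease inhibitor gene, was likewise listed at 0 in Th1 and at 48.2 and 64.5 FPKM in Th2, and *Sval1* was at 1.1 and 0.248 FPKM in Th1 and 86.4 and 81.9 FPKM in Th2. *Rnf128*, a ubiquitin ligase gene known from T cell anergy, was at 0.792 and 0.739 FPKM in Th1 and 57.1 and 55.8 FPKM in Th2, a difference of -5.02 (SE 0.09, adjusted p = 6.21e-07).

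**Figure D5:**
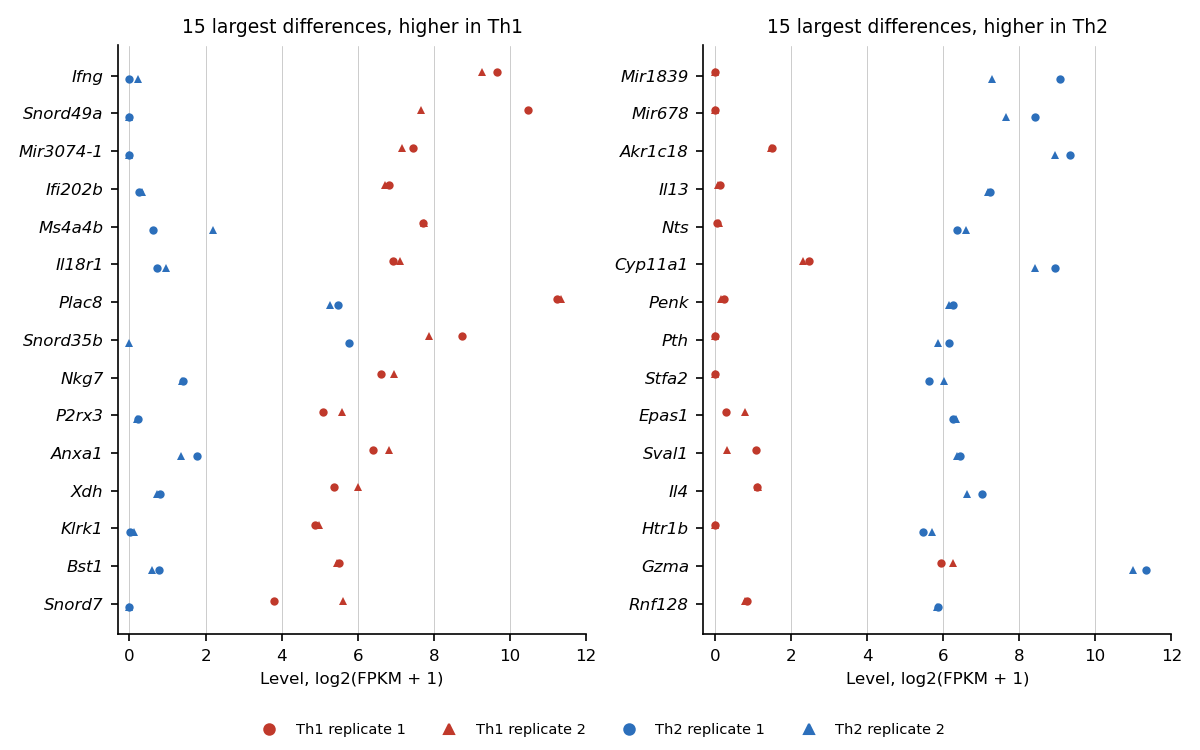
Levels in log2(FPKM + 1) of the 15 genes with the largest differences in each direction, with 1 point per library (red, Th1; blue, Th2; circles, replicate 1; triangles, replicate 2). The groups do not overlap in any gene by the rule of choice, and the small RNA gene *Snord35b*, with 54.0 FPKM in one Th2 library and 0 in the other, shows the widest gap between replicates.

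The motif AGATAA, bound by GATA factors, was found on either strand in 11.2% of all windows, 6.35% of those of genes tested, 10.3% of those higher in Th1 by at least 1, and 8.29% of those higher in Th2 by at least 1. It is shown for the 3 Th2 genes of the largest differences that held it upstream of the start, with the motif in capitals (its reverse complement in *Pth*).
*Il13* (chr11:53634763-53634798, minus strand, GRCm38.p6): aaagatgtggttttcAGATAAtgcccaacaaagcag
*Nts* (chr10:102490529-102490564, minus strand, GRCm38.p6): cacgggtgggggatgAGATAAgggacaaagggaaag
*Pth* (chr7:113388686-113388721, minus strand, GRCm38.p6): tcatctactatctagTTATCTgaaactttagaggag
The T-box motif AGGTGTGA was in 1.28% of all windows, in 0.871% of those of genes tested, in 1.76% of those higher in Th1 by at least 1, and in 1.49% of those higher in Th2 by at least 1. The STAT6 motif, TTC and GAA with 4 bases between them, was in 6.95% of all windows, 5.34% of those of genes tested, 6.36% of those higher in Th1 by at least 1, and 5.97% of those higher in Th2 by at least 1.

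The list of largest differences further held 6 genes of small RNAs. In Th1 these were *Snord49a*, *Mir3074-1*, *Snord35b* and *Snord7*, and in Th2 *Mir1839* and *Mir678*. They rested on at most 8 implied fragments in any library, since FPKM divides by a very short length, and *Snord49a* for instance was at 1421 and 203 FPKM in Th1 from at most 1 fragment. Every stretch of 50 bases of *Snord35b*, *Mir1839* and *Mir678* is also part of another gene. *Snord49a*, *Snord35b*, *Mir1839* and *Mir678* no longer passed when 1 or more of the Th1 and Th2 libraries was left out, and these levels say little about the subsets. Apart from such genes, 51 genes were at 5 FPKM or more in both Th1 libraries and under 1 FPKM in both Th2 libraries, and 52 genes showed the opposite pattern.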

How the data were processed

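RNA was sequenced from 8 libraries, 2 for each of 4 groups, and groups were taken from the sample labels. Per the methods and labels, reads of 50 bases were aligned to mm10 with TopHat 1.3.2 and Bowtie 0.12.8, and the authors computed FPKM with its confidence interval by Cufflinks 2.0.2. The gene annotation is not given in the sources used here. The methods name an unstranded and the labels a stranded library kit, so reads of a gene and its antisense partner may not be separated. From the deposited FPKM values, rows with the same gene symbol were summed, and genes with a mean of at least 1 FPKM over the 4 Th1 and Th2 libraries were tested as log2(FPKM + 1) with limma 3.58.1 in R 4.3.3, using an intensity trend and Benjamini-Hochberg adjustment over all genes tested. The fit held all 4 groups, which share one estimate of the spread. A count test was not used, since the files hold no counts. The fragments behind a value were estimated from the intervals that the authors deposited, of 95% confidence.

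On simulated data of 10946 genes with 200 changed, the Th1 against Th2 test recovered 86.5% of changes of 1 and 99% of changes of 2 on the log2 scale, with 4.9% and 3.4% of calls false. The simulated noise was normal and independent between genes, and the changes were even in direction. In the data 45.9% of genes were called and the balance of directions moved with the scaling, so these rates may not hold there. Promoter windows came from RefSeq, and positions are 1-based, as mm10 in the files. Named were the 4 markers, the 15 largest differences in each direction, and up to 6 members of each of 26 gene lists, led by the largest differences among called genes. A few further members were named after their values were seen. Some list members are not reported here. The members and lists were chosen with earlier results of these data known. Alternatives changed the pseudocount, the filter, the scaling, the libraries in the fit, the trend, the replicate block, the treatment of repeated symbols and the estimation status, and left out each library in turn. Figures were drawn with matplotlib 3.10.9 in Python 3.11.15.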

Additional observations from a re-analysis of the deposited data

How the results depend on the processing

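The number of genes called (5028) stayed within 1.5 times under every alternative that kept all libraries, between 3627 and 6044. Leaving out a library gave 3270 to 5028 calls, 1828 to 3077 higher in Th1 and 1381 to 1951 higher in Th2, the lowest without Th1 replicate 2 (3270) and Th2 replicate 2 (3331). With a difference of at least 1 these were 1339 to 1609 in all, 731 to 906 higher in Th1 and 608 to 703 higher in Th2, whereas either scaling put more of them in Th2 (748 against 686 with median scaling, 786 against 712 with quantile normalization). A mean of at least 5 FPKM left 949 genes with such a difference, 396 of them higher in Th2, and a difference of at least 2 left 407, 219 higher in Th1 and 188 in Th2. Without a fold threshold these counts were 5028, 3079 and 1949. Of the called genes named, none changed direction under any alternative run. Among genes that did not pass, the sign turned without 1 library for *Runx3* (-0.09 to 0.34), *Il2rb* (-0.14 to 0.09), *Cd8b1* (-0.38 to 0.10), *Mpo* (-0.93 to 1.63) and *Elane* (-1.31 to 0.92).

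The labels give the same replicate numbers to every group, but nothing in them ties the numbers to a shared culture. With the replicate block 6044 genes were called, among them all 5028, with 3726 higher in Th1 and 2318 in Th2. The replicate differences of Th1 and Th2 correlated at 0.284 across genes, and those of the other pairs of groups at 0.167 to 0.349. With the block, *Stat6* (adjusted p = 0.00464), *Dennd4b* (0.00697), *Il12rb1* (0.00792) and *Mki67* (0.0116) passed, and no called gene that is named was lost. Without counts, depth is known only from the intervals, and differences of genes near 0 FPKM depend on the pseudocount, which moved the differences of *Il5*, *Cxcr3*, *Fasl* and *Iigp1*, among others, by over 1.5 times.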

Other observations

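Several genes that are best known from alternatively activated macrophages were higher in Th2, and these were named after their values were seen. *Arg1*, the arginase gene, was at 0.0255 and 0.134 FPKM in Th1 and 13.2 and 9.86 FPKM in Th2, a difference of -3.52 (adjusted p = 4.57e-06) by limma. *Mmp12*, the macrophage metalloelastase gene, was at 0.344 and 0.442 FPKM in Th1 and 15.8 and 14.2 FPKM in Th2 (difference -3.52, adjusted p = 2.16e-06). *Chi3l3*, which encodes a chitinase-like protein, was listed at 0 and at 0.256 FPKM in Th1 and was at 11.2 and 8.08 FPKM in Th2. The groups did not overlap in any of these genes, as was common among all genes tested. The summed level of the 11 myeloid and dendritic cell markers was 9.16 to 9.88 FPKM in Th1 and 21.2 to 28.4 FPKM in Th2, with *Emr1* at 0.0214 and 0.0787 FPKM in Th1 and 4.63 and 5.88 FPKM in Th2, *Lyz2* at 4.25 and 4.15 FPKM in Th1 and 19.9 and 11.7 FPKM in Th2, *Siglech* listed at 0 in all 4 libraries and *Fcgr1* at 0.0137 FPKM or less. The part of other cells of the culture in these levels was not tested.

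More genes of neuropeptides and transmitters followed those among the largest Th2 differences, again named after their values were seen. *Grp*, which encodes gastrin-releasing peptide, was listed at 0 in both Th1 libraries and at 20.1 and 27.3 FPKM in Th2, and *Ghrh*, the growth hormone-releasing hormone gene, at 0 in Th1 and at 9.44 and 11.8 FPKM in Th2. *Ddc*, which encodes the decarboxylase of dopamine and serotonin synthesis, was at 0.278 and 0.332 FPKM in Th1 and 28.5 and 27 FPKM in Th2 (difference -4.46, adjusted p = 1.1e-06). *Slc17a6*, a vesicular glutamate transporter gene, was at 0.261 and 0.166 FPKM in Th1 and 12.4 and 14.1 FPKM in Th2 (difference -3.55, adjusted p = 1.56e-06). In naive cells *Ddc* was at 0.274 and 0.125 FPKM and the other 3 genes were listed at 0.

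Some gene families moved as a block, and they were chosen after the values were seen, so the counts are descriptions beside the 28.1% of all genes tested that were higher in Th1 and the 17.8% higher in Th2. All 8 PYHIN genes tested, which encode DNA sensors and relatives induced by interferon, were higher in Th1 with differences of 1.20 to 6.48, as were all 6 *Ms4a* genes (1.82 to 6.32), all 7 killer cell lectin-like receptor genes (1.54 to 4.86) and all 5 Schlafen genes (0.78 to 1.71). Of 47 proteasome subunit genes, which reach beyond the immunoproteasome, 29 were higher in Th1 and 1 in Th2 (25 and 3 after quantile normalization). Of 83 cytosolic ribosomal protein genes, by contrast, 2 were higher in Th1 and 3 in Th2. Of 247 *Zfp* genes, most of which encode zinc finger repressors, 24 were higher in Th1 and 58 in Th2 (16 and 63 after median scaling). Families share sequence among their members, and reads may be split between them.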
